A study of Mus with 6 samples.

Results

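Heat shock proteins and their DNAJ co-chaperones were followed in ribosome-bound RNA precipitated from whole mouse brain. Members were taken by symbol from the deposited table: Hspa, Hspb, Hspd, Hspe and Hsph genes with a number, Hsp90 genes, and Dnaja, Dnajb and Dnajc genes. There were 70 members among 18887 genes, 27 of them Hsp genes and 43 Dnaj genes. Of these, 65 passed the filter of a normalized count of at least 10 in at least 2 libraries, among 14698 genes tested.

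The precipitates came from 4 samples labelled IRKO, with the genotype KO, and 2 samples labelled MG, with the genotype Ctr, called controls below. The IRKO genotype is read from the study's title as loss of insulin signalling in microglia, the brain's own macrophages. RiboTag precipitation pulls down ribosomes that carry a tagged ribosomal protein made in a chosen cell type, and all 6 samples went through it. For both groups the labelled tissue was whole brain and the labelled cells were microglia. They do not state the driver of the tag or of the deletion, the age or sex of the mice, any treatment, or whether animals were pooled, and no input library was analysed.

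Chaperones of the Hsp70 family bind exposed stretches of unfolded proteins and release them again with each round of ATP hydrolysis. DNAJ proteins deliver clients and trigger that hydrolysis through their J domain, exchange factors such as the Hsp110 proteins reopen the cycle, and Hsp90 takes over many clients at a later step. Mitochondria and the endoplasmic reticulum have Hsp70, Hsp90 and DNAJ proteins of their own, small heat shock proteins hold unfolding proteins in the cytosol, and the transcription factor HSF1 induces part of the set under heat or misfolding.

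The groups differed in cell type markers, which bears on every value below. Insr, the insulin receptor gene, had normalized counts of 357, 366, 290 and 340 in IRKO libraries and 565 and 532 in controls (limma log2 change −0.70, adjusted p = 0.00211). All 13 astrocyte markers were lower in IRKO (median log2 change −3.96), and their summed normalized count was 46792 to 79254 in IRKO against 579789 to 733209 in controls. All 15 homeostatic microglia markers were higher (median 1.72; sums of 117323 to 164510 in IRKO against 44211 to 53592 in controls), which is the labelled cell type, and 7 of 10 neuron markers were higher (median 0.92; sums of 54011 to 70139 against 30103 to 38882). The 5 red blood cell genes summed to 243 to 2132 in IRKO against 75516 to 161622 in controls. The 5 liver genes summed to 2.97 to 13.6 in IRKO against 568 to 8203 in controls, and 4 of them were at 0 in all IRKO libraries. The liver genes and Alas2 passed the filter only through the controls, so their calls are no support. None of the astrocyte, microglia, neuron or ependyma markers was at 0 in a whole group. These are precipitates, and no input library was analysed. The number of cells of a type, its RNA per cell and the share of its RNA precipitated thus cannot be told apart. The part of these marker differences in the changes of the chaperone genes was not tested.

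More chaperone genes were lower than higher in IRKO. At a limma adjusted p under 0.05, 28 members were lower, 9 were higher and 28 did not pass, so that 43.1% of the tested members were lower and 13.8% higher. Over all genes tested, 29% were lower and 26.6% higher, and 55.6% passed in either direction. The median log2 change of the members was −0.33, against 0.02 for all genes. Among members that passed, the falls were the largest in Hspa2, Hspb8, Hspb6, Dnajb13, Hspa9 and Dnajc24, and the rises in Dnajc6, Hspb3, Hspa12a and Dnajc27. Dnajb13, counted within the 28, entered the test only through its control values, so its call is no support.

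The direction of all 9 rises, the largest included, and of the smaller changes hangs on what the libraries are scaled to. With every library scaled to an equal mean of the 15 microglia markers, the median of all genes moved to −1.59 and that of the members to −1.94, with 62 members lower and 0 higher at limma's adjusted p under 0.05. In that scaling 0 members were higher at an unadjusted p under 0.05 as well, and 39 of all genes were higher after adjustment; no other tool was run on it. Quantile normalization moved the medians to 0.12 for all genes and −0.07 for the members, with 22 members lower and 13 higher. Each of the 9 rises of members, at most 1.12, turned to a value below 0 in the scaling to microglia markers. The median of all genes moved from 0.02 to −1.59 there, by more than any of these rises. Their turn thus follows from the size of that shift and is no separate result for each gene. That scaling lowers all genes together, so a fall could not change its sign there, and it is no support for the falls. None of the 28 falls changed its sign after quantile normalization. TMM scaling moved the median of all genes only from 0.02 to 0.03, too little to turn the sign of any of these falls. It is therefore no support for them either. After quantile normalization 21 of the 28 falls and all 9 rises kept their call.

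The IRKO values lay below both control values in 34 of the 65 members and above both in 13. Among all genes tested these shares were 34.8% and 32.8%. The members took 0.764 ± 0.0569% of each library's total in IRKO (SD, n = 4) and 0.804 ± 0.0288% in controls (SD, n = 2), and the 2 ranges overlapped. Their summed normalized count was 94519 to 118005 in IRKO and 148745 to 151681 in controls, beside sums over all tested genes of 13490688 to 14354848 in IRKO and 18392272 to 18983456 in controls.

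**Figure D1:**
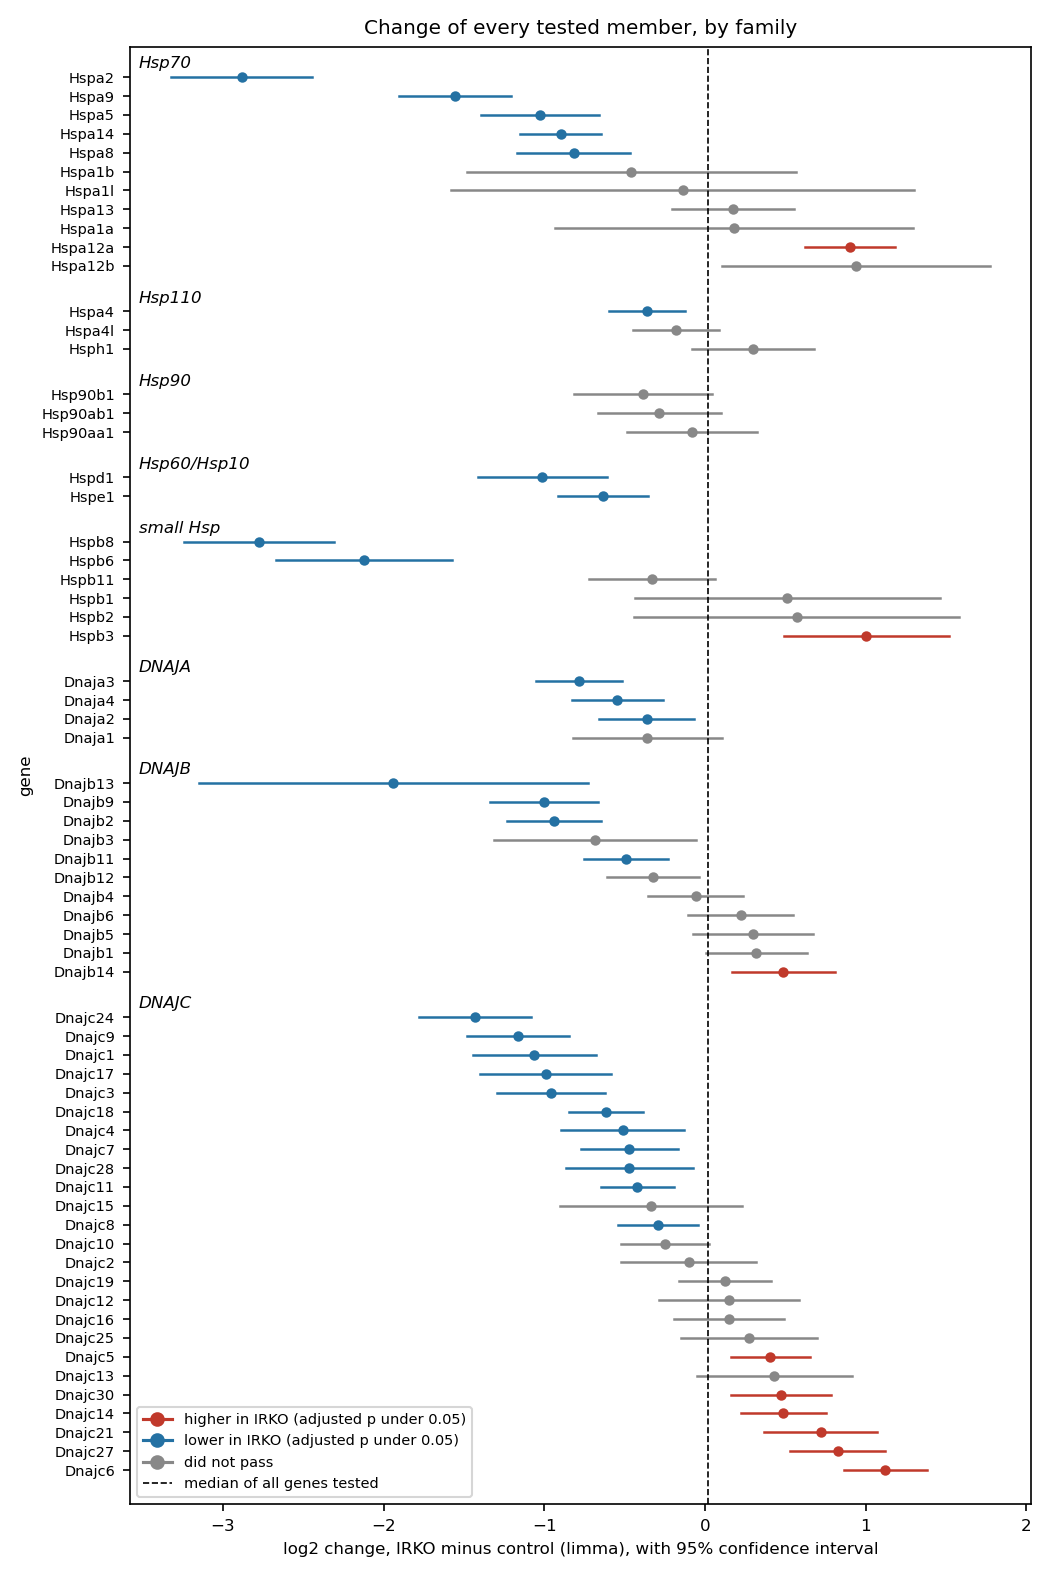
Log2 change of each of the 65 tested members (IRKO minus control, limma on log2(normalized count + 1), 4 IRKO and 2 control libraries), grouped by protein family, with bars for the 95% confidence interval and a dashed line at the median of all genes tested. Most Hsp70 and DNAJ points lie left of the line, down to −2.88 for Hspa2, while Dnajc6 reaches 1.12; with libraries scaled to microglia markers all points to the right of 0 move below 0.

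Central genes of the mitochondrial folding machinery were lower in IRKO. Hspa9, the Hsp70 of the mitochondrial matrix that pulls imported proteins through the inner membrane, had normalized counts of 3505, 3064, 2680 and 2409 in IRKO libraries, against 8442 and 8554 in controls. The groups were far apart, and the fall was 2.94-fold (log2 change −1.56 ± 0.154 SE, adjusted p = 4.46e-05). Hspd1, the chaperonin Hsp60 that encloses folding proteins in a barrel, had 2706, 2699, 2019 and 1831 in IRKO and 4292 and 4923 in controls, a 2.02-fold fall (−1.01 ± 0.178, adjusted p = 0.00127). Hspe1, the Hsp10 lid of that barrel, had 1481, 1573, 1506 and 1254 in IRKO and 2125 and 2379 in controls (−0.63 ± 0.124, adjusted p = 0.00226). The 2 genes lie next to each other on chromosome 1, Hspd1 at 55077833 to 55088243 and Hspe1 at 55088148 to 55091317 in GRCm38.p6, where their annotated ends overlap. Their pseudogenes, 5 named after Hspd1 and 7 after Hspe1 in RefSeq, are a further reason to treat the split of reads between copies as uncertain.

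Of the mitochondrial DNAJ genes, Dnaja3, which works with Hspa9 in the matrix, fell to 892, 807, 777 and 717 in IRKO, against 1347 and 1398 in controls (−0.79 ± 0.118, adjusted p = 0.000529). Dnajc11, a protein tied to the cristae-organizing MICOS complex, fell less, with 892 to 943 in IRKO and 1219 and 1248 in controls (−0.42, adjusted p = 0.00631; −0.19 and adjusted p = 0.137 after quantile normalization). The import motor subunit Dnajc19 and the related Dnajc15 had different values. Dnajc19 had 398 to 474 in IRKO and 376 and 409 in controls, with a 95% interval of the log2 change from −0.16 to 0.41. Dnajc15 spread widely among IRKO libraries, from 273 in replicate 4 to 527 in replicate 2, around controls of 503 and 574 (interval −0.90 to 0.23). Dnajc30, a protein linked to ATP synthase, was the mitochondrial member that rose, to 603 to 767 in IRKO against 451 and 540 in controls (0.48 ± 0.137, adjusted p = 0.0158). That call was lost without control replicate 1 (0.35, adjusted p = 0.1405), and the change was −1.14 in the scaling to microglia markers. Across the 8 mitochondrial members 5 fell, 1 rose and 2 did not pass, with a median of −0.53. That is 62.5% lower and 12.5% higher, against 29% lower and 26.6% higher among all genes tested.

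Most partners of these proteins outside the symbol rule were lower too. In a list of 10 mitochondrial chaperones and proteases 8 fell, none rose and 2 did not pass, with a median of −0.93 against 0.02 for all genes. The share lower was 80%, against 29% of all genes tested. All 10 changes were below 0, between −1.68 and −0.20. Trap1, the mitochondrial Hsp90, had 464 to 525 normalized counts in IRKO and 1471 and 1653 in controls (−1.68 ± 0.114, adjusted p = 4.16e-06). Lonp1, a matrix protease, fell 2.98-fold and Clpb, a disaggregase, 2.35-fold. Grpel1, the exchange factor of Hspa9, had 498 to 683 in IRKO and 1046 and 1096 in controls (−0.90 ± 0.143, adjusted p = 0.000725), and its paralog Grpel2 had 292 ± 37.2 in IRKO (SD, n = 4) and 279 ± 38.9 in controls (SD, n = 2). Timm44 and Pam16, which belong to the import motor as Dnajc19 does, did not pass.

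**Figure D2:**
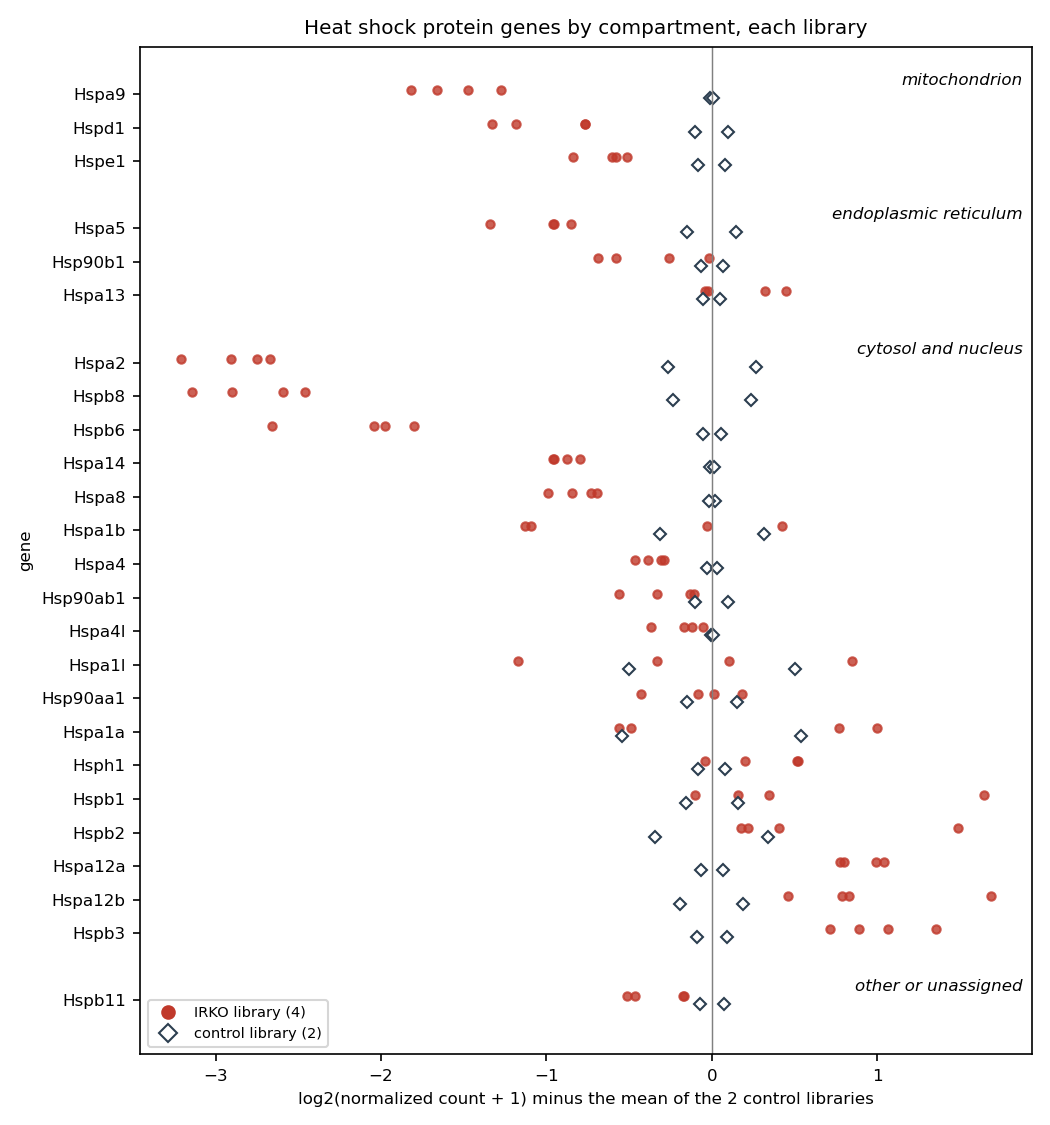
Each of the 6 libraries for the 25 tested Hsp genes, as log2(normalized count + 1) minus the mean of the 2 control libraries, with filled circles for the 4 IRKO libraries and open diamonds for the 2 controls, grouped by compartment. All IRKO circles lie left of both diamonds for 13 of the 25 genes, among them Hspa9, Hspd1, Hspe1, Hspa5, Hspa2, Hspb8, Hspb6, Hspa14 and Hspa8. They lie right of both for 3, Hspa12a, Hspa12b and Hspb3. For Hspa1a, Hspa1b and Hspa1l both groups spread widely and overlap. Among all genes tested, 34.8% lay below both controls and 32.8% above both.

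In the endoplasmic reticulum, Hspa5 and several of its DNAJ partners were lower in IRKO, while Hsp90b1 did not pass. Hspa5, the Hsp70 known as BiP (chromosome 2, 34772090 to 34776529), had 6333, 5890, 4519 and 5886 normalized counts in IRKO, against 12674 and 10313 in controls. Every IRKO library held less than both controls, a 2.04-fold fall (−1.03 ± 0.164, adjusted p = 0.000725). Hsp90b1, the Hsp90 of this compartment, had 9221, 7769, 5791 and 6226 in IRKO and 9747 and 8900 in controls. Its IRKO replicate 1 lay between the controls and the interval ran from −0.81 to 0.04 (adjusted p = 0.112), and without that library the change was −0.51 with adjusted p = 0.0269. Hspa13, a small Hsp70-like ATPase of the same compartment, had 326 to 458 in IRKO and 349 and 324 in controls (interval −0.21 to 0.56).

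The DNAJ proteins that act on Hspa5 from inside the lumen fell in 4 of 5 cases, where 29% of all genes tested were lower. Dnajb9, which brings Hspa5 to the stress sensor IRE1, had 244, 233, 244 and 213 in IRKO and 533 and 411 in controls (adjusted p = 0.000490). Dnajc3, also called p58IPK, had 1353, 1047, 997 and 1185 in IRKO and 2443 and 2001 in controls (−0.96 ± 0.149, adjusted p = 0.000633). Dnajc1, a membrane-bound co-chaperone, fell 2.09-fold and Dnajb11, a lumenal co-chaperone that binds clients, 1.40-fold, though Dnajb11 did not pass after quantile normalization (adjusted p = 0.0943). Dnajc10, a disulfide reductase with a J domain, had 586 to 713 in IRKO and 742 and 808 in controls and did not pass (−0.25, adjusted p = 0.109).

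Members whose J domain faces the cytosol from the reticulum membrane had other values. Dnajb14 had 2093, 2833, 2257 and 2124 in IRKO and 1580 and 1714 in controls, a rise of 1.40-fold (adjusted p = 0.0160) that no longer passed without control replicate 1 (0.43, adjusted p = 0.112) or 2 (0.55, adjusted p = 0.0537). Its paralog Dnajb12 had 384 to 459 in IRKO and 489 and 552 in controls, with a change of −0.32 (adjusted p = 0.0545, and 0.0353 without IRKO replicate 4). Dnajc14, which helps the transport of membrane receptors, rose to 1348 to 1658 in IRKO against 1055 and 1067 in controls (0.49 ± 0.117, adjusted p = 0.00654). Both rises stood at −1.13 in the scaling to microglia markers. In the whole compartment 5 of 11 members fell and 2 rose, with a median of −0.39. That is 45.5% lower and 18.2% higher, against 29% lower and 26.6% higher among all genes tested. Of the 35 tested members of the cytosol and nucleus, 14 fell and 3 rose, or 40% lower and 8.57% higher.

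Of 19 genes of the endoplasmic reticulum stress response, 6 fell, 4 rose and 9 did not pass, with a median of −0.25. These shares, 31.6% lower and 21.1% higher, were near the 29% and 26.6% of all genes tested. Pdia4, a disulfide isomerase, fell 1.96-fold, and the lectin chaperones Canx and Calr fell 1.54-fold and 1.53-fold. Calr lost its call when control replicate 1 was left out (−0.40, adjusted p = 0.0869) and after quantile normalization (−0.25, adjusted p = 0.187). Edem1, which sends misfolded glycoproteins to degradation, had 1163 to 1713 in IRKO and 654 and 540 in controls (1.16 ± 0.169, adjusted p = 0.000434). The stress sensors and factors Atf6 (1.57-fold) and Xbp1 (1.49-fold) were higher too, and all of these rises were below 0 in the scaling to microglia markers. Sil1, an exchange factor of Hspa5, fell 3.26-fold to 479 to 622 in IRKO against 1671 and 1867 in controls (adjusted p = 8.74e-06), while Hyou1, its other exchange factor, had 1366 ± 132 in IRKO (SD, n = 4) and 1460 ± 87.5 in controls (SD, n = 2).

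Among the cytosolic Hsp70 genes, the constitutive ones fell, 1 atypical member rose and the heat-inducible ones did not pass. Hspa8, the constitutive Hsc70 that also strips clathrin from vesicles (chromosome 9, 40801276 to 40805202), had 20788, 20252, 18728 and 16926 normalized counts in IRKO and 34125 and 33208 in controls. The fall was 1.76-fold (−0.82 ± 0.155, adjusted p = 0.00192) and no longer passed after quantile normalization (−0.24, adjusted p = 0.141). Hspa8 took 0.137 ± 0.00871% of the library total in IRKO (SD, n = 4) and 0.180 ± 0.000505% in controls (SD, n = 2). Hspa14, which sits on the ribosome with Dnajc2 and meets new chains as they emerge, had 430, 433, 457 and 481 in IRKO and 831 and 845 in controls (−0.90 ± 0.112, adjusted p = 0.000175). Dnajc2 itself had 315 to 409 in IRKO and 323 and 484 in controls, so the groups overlapped (interval −0.52 to 0.32).

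Hspa2, best known for its part in sperm formation, had the largest fall of any member. It lies on chromosome 12 from 76403812 to 76406938, and its normalized counts were 224, 201, 237 and 163 in IRKO, against 1822 and 1257 in controls. Both controls were several times higher than every IRKO library, and the fall was 7.38-fold (−2.88 ± 0.196, adjusted p = 4.03e-06). This change lay within the span of the 13 astrocyte markers, which ran from −4.77 to −2.69, and its relation to them was not tested.

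The heat-inducible pair Hspa1a and Hspa1b, which lie close together on chromosome 17 with Hspa1l and encode nearly the same protein, varied more within groups than between them. Hspa1a had 165, 141, 58.3 and 55.5 in IRKO and 56.2 and 120 in controls. Hspa1b had 96.1, 70.0, 33.0 and 32.1 in IRKO and 57.4 and 89.1 in controls. IRKO replicates 1 and 2 were high and replicates 3 and 4 low for both genes, and the controls differed from each other as well. The intervals of the log2 change were −0.93 to 1.29 for Hspa1a and −1.48 to 0.57 for Hspa1b. Reads may be split between these near-identical copies, so single values are uncertain. Hspa1l, a member expressed in testis, had 3.90 to 18.8 in IRKO and 6.78 and 14.6 in controls.

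Hspa12a, an atypical and distant Hsp70 relative, rose to 768, 782, 923 and 894 in IRKO, against 429 and 469 in controls (1.87-fold, 0.90 ± 0.125, adjusted p = 0.000316; −0.71 in the scaling to microglia markers). Its endothelial paralog Hspa12b had 38.6, 30.6, 39.8 and 73.0 in IRKO and 19.1 and 25.2 in controls. All 4 IRKO values were above both controls, with a change of 0.94 that did not pass (adjusted p = 0.0542, and 0.0388 without IRKO replicate 2). Of 6 endothelial markers 3 were higher and none was lower, with sums of 798 to 961 in IRKO against 451 to 521 in controls. Whether they share a source with Hspa12b was not tested.

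The Hsp110 exchange factors had unlike values. Hspa4 had 2286, 2321, 2166 and 2056 in IRKO and 2774 and 2892 in controls, a small fall (−0.36 ± 0.106, adjusted p = 0.0168) that did not pass without control replicate 1 (−0.39, adjusted p = 0.0587) or 2 (−0.33, adjusted p = 0.0919) or after quantile normalization (−0.06, adjusted p = 0.611). Hspa4l had 896 to 1118 in IRKO and 1154 and 1163 in controls (interval −0.45 to 0.09). Hsph1, the heat-inducible one, had 1940, 1928, 1553 and 1311 in IRKO and 1276 and 1427 in controls. IRKO replicate 4 lay between the controls and the other 3 above them, with a change of 0.30 (adjusted p = 0.158, 0.0333 without that library, and 0.0174 after quantile normalization; below 0, at −1.31, in the scaling to microglia markers).

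Neither cytosolic Hsp90 gene passed the test. Hsp90aa1, the inducible one, had 8898, 7932, 7395 and 5841 in IRKO around 7061 and 8719 in controls, and its interval was −0.48 to 0.33. Hsp90ab1, the constitutive one, had 15798, 16073, 13772 and 11702 in IRKO and 16137 and 18545 in controls, with an interval of −0.67 to 0.10. All 4 IRKO values of Hsp90ab1 were below both controls, by little in replicates 1 and 2.

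Of 16 Hsp90 co-chaperones, 7 fell, 2 rose and 7 did not pass, with a median of −0.34. In all 56.2% passed in either direction, near the 55.6% of all genes tested. By direction, 43.75% were lower and 12.5% higher, against 29% lower and 26.6% higher among all genes tested. Fkbp4, an immunophilin of steroid receptor complexes, fell 1.80-fold, St13, which links Hsp70 to Hsp90, 1.79-fold and Ppp5c, a phosphatase, 1.72-fold. Fkbp5, an immunophilin induced by glucocorticoids, rose to 1717, 1893, 2499 and 3236 in IRKO against 1174 and 577 in controls (1.46 ± 0.307, adjusted p = 0.00332; −0.16 in the scaling to microglia markers). Chordc1, a heat-inducible Hsp90 partner, had 824, 847, 617 and 524 in IRKO and 424 and 471 in controls (0.62 ± 0.198, adjusted p = 0.0240; −0.99 in that scaling). Its call was lost without control replicate 1 (adjusted p = 0.146) or 2 (0.0753) and without IRKO replicate 2 (0.0536).

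Small heat shock proteins held both the steepest falls after Hspa2 and 1 of the larger rises. Hspb8, which works with Bag3 to steer misfolded proteins into autophagy (chromosome 5, 116408491 to 116422864), had 410, 255, 302 and 373 normalized counts in IRKO, against 2658 and 1920 in controls. That was a 6.84-fold fall (−2.77 ± 0.207, adjusted p = 7.14e-06), also within the span of the astrocyte markers. Bag3 itself had 615, 464, 287 and 387 in IRKO and 841 and 873 in controls (−1.02 ± 0.252, adjusted p = 0.00761), without a call when control replicate 1 (adjusted p = 0.0508) or 2 (0.0584) was left out. Hspb6, also called Hsp20 (chromosome 7, 30552535 to 30555443), had 50.5, 77.9, 81.6 and 92.5 in IRKO and 336 and 313 in controls (−2.12 ± 0.243, adjusted p = 0.000107). It overlaps Lin37 in the annotation, and whether the counting used strand is not given in the sources used here. Cryab, a small heat shock protein that lies beside Hspb2 and outside the symbol rule, had 1351 to 1770 in IRKO and 2565 and 2295 in controls (−0.63 ± 0.130, adjusted p = 0.00303).

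Hspb3, a small heat shock protein known from muscle, rose to 131, 94.6, 107 and 83.8 in IRKO against 54.0 and 47.4 in controls (1.01 ± 0.227, adjusted p = 0.00481; −0.59 in the scaling to microglia markers). Hspb1, the stress-induced Hsp27, had 309 in IRKO replicate 1 and 91.3 to 125 in the other IRKO libraries, beside 87.7 and 109 in controls. Hspb2 showed the same high library, with 50.5 in IRKO replicate 1, 19.7 to 23.4 in the others and 13.5 and 22.3 in controls. Neither passed (adjusted p = 0.324 and 0.302). Hspb2 overlaps Cryab in the annotation, so reads of the more strongly counted neighbour could enter its value. Hspb11, a subunit of the intraflagellar transport machinery of cilia, had 126 to 160 in IRKO and 171 and 189 in controls (adjusted p = 0.133).

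**Figure D3:**
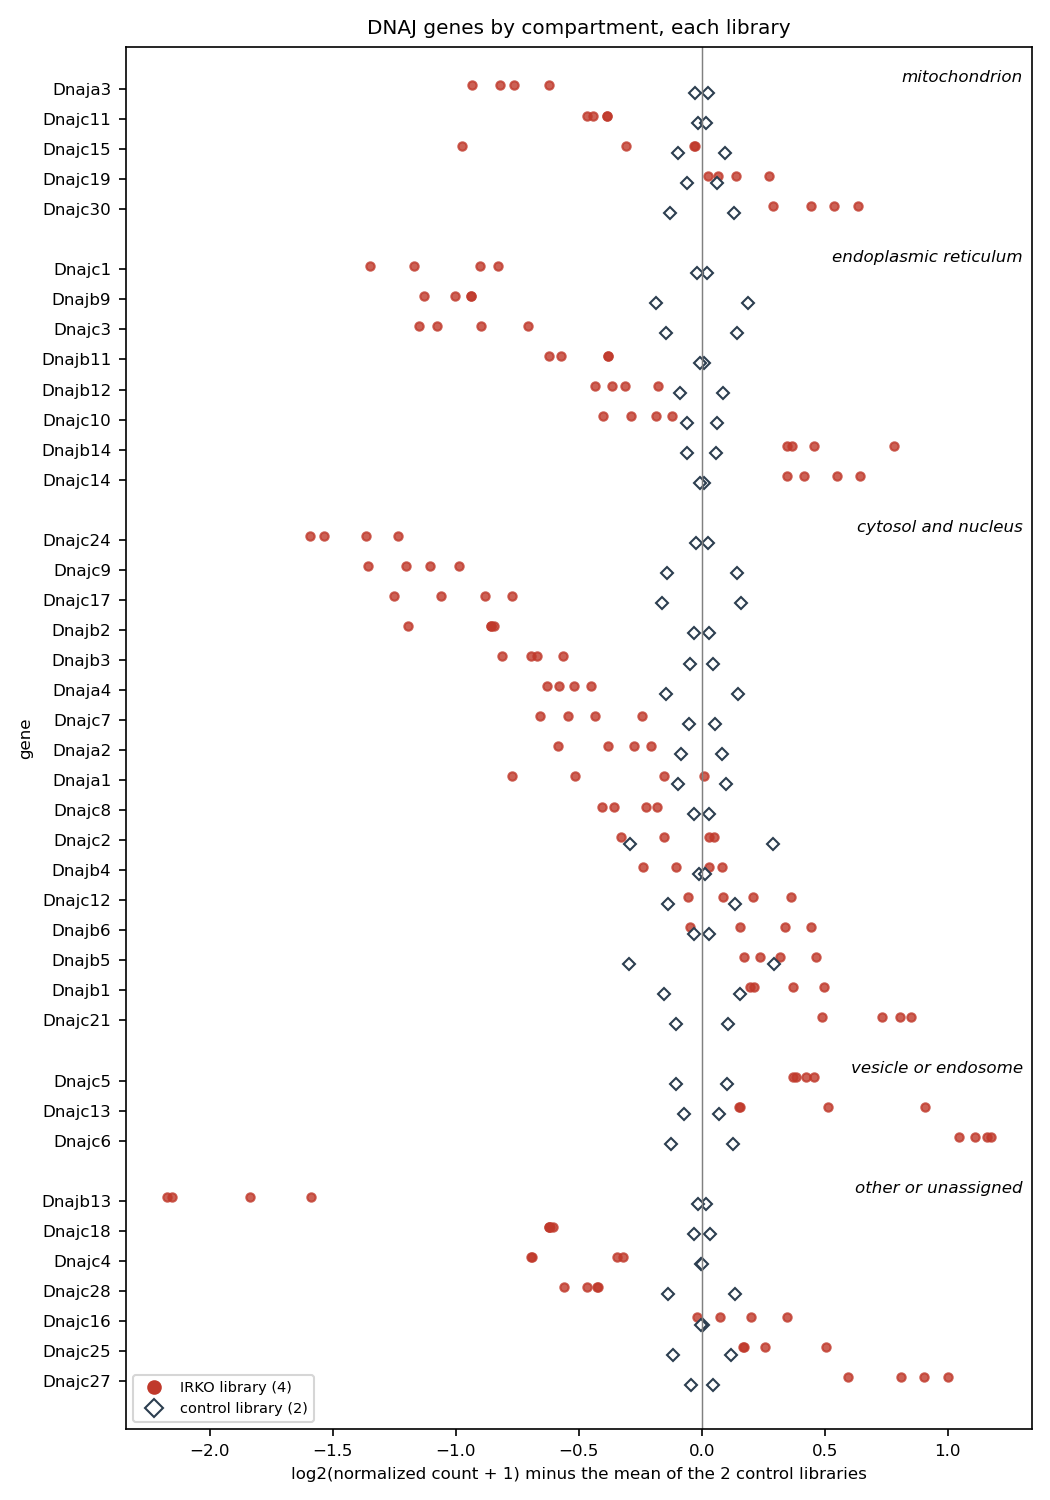
Each of the 6 libraries for the 40 tested Dnaj genes, as log2(normalized count + 1) minus the mean of the 2 control libraries, with filled circles for the 4 IRKO libraries and open diamonds for the 2 controls, grouped by compartment. The circles lie left of both diamonds for 21 of the 40 genes and right of both for 10, among them all 3 vesicle and endosome genes. Among all genes tested, 34.8% lay below both controls and 32.8% above both. In the scaling to microglia markers the rises of these Dnaj genes turn to values below 0.

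Among DNAJ co-chaperones, 18 of 40 fell, 7 rose and 15 did not pass, with a median of −0.33. That is 45% lower and 17.5% higher, against 29% lower and 26.6% higher among all genes tested. The general cytosolic partners of Hsp70, Dnaja1, Dnaja2 and Dnaja4, had moderate changes. Dnaja4 had 504 to 571 in IRKO and 705 and 865 in controls (−0.55 ± 0.126, adjusted p = 0.00529, and 0.0616 without control replicate 2). Dnaja2 had 1274 to 1657 in IRKO and 1805 and 2025 in controls (−0.36 ± 0.131, adjusted p = 0.0401), and this call was lost without either control (adjusted p = 0.0745 and 0.221), without IRKO replicate 3 or 4 (0.0700 and 0.0597) and after quantile normalization (0.504). Dnaja1, which is induced by heat, had 4657, 4163, 3238 and 2707 in IRKO and 4324 and 4954 in controls. It was lowest in IRKO replicates 3 and 4 and did not pass (adjusted p = 0.166).

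Class B members of the cytosol ranged from a clear fall to values above controls. Dnajb2, a neuron-rich co-chaperone that guides ubiquitinated clients to the proteasome, had 2103, 2087, 2083 and 1647 in IRKO and 3856 and 3699 in controls, a 1.92-fold fall (−0.94 ± 0.130, adjusted p = 0.000322). Dnajb1, the heat-inducible Hsp40 that drives disaggregation with Hspa8, had 736, 803, 659 and 652 in IRKO, all above the 511 and 632 of the controls, with a change of 0.32 that did not pass (interval 0.01 to 0.63, adjusted p = 0.0770, and 0.0128 after quantile normalization). Dnajb6, an inhibitor of amyloid-like aggregation, had 2138 to 3003 in IRKO and 2164 and 2256 in controls (adjusted p = 0.217, and 0.00770 after quantile normalization). Dnajb5 had 2095 to 2568 in IRKO and 1515 and 2279 in controls (adjusted p = 0.153, and 0.0188 without control replicate 2). The changes of Dnajb1, Dnajb6 and Dnajb5 were all below 0 in the scaling to microglia markers. Dnajb4, an Hsp40 close to Dnajb1, averaged 445 ± 43.5 in IRKO (SD, n = 4) and 462 ± 5.60 in controls (SD, n = 2), with an interval of −0.35 to 0.24. Dnajb3, a low-count gene that overlaps the Ugt1a genes in the annotation, had 21.4 to 25.6 in IRKO and 37.1 and 39.7 in controls (adjusted p = 0.0618).

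Dnajb13, a protein of the radial spokes of motile cilia, had 2.97, 3.94, 2.91 and 4.87 in IRKO and 16.9 and 16.5 in controls (−1.94 ± 0.537, adjusted p = 0.0132). It entered the test only through its control values, so its call, although within the 28 falls, is no support for them. Of the 5 ependyma markers, cells that carry such cilia, 4 were lower and 1 did not pass (median −1.83; sums of 113 to 187 in IRKO against 457 to 528 in controls).

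The class C members are specialists, and 11 of 25 fell while 6 rose. The share that fell was 44%, against 29% of all genes tested, and the share that rose, 24%, was near the 26.6% of all genes. Dnajc24, which acts in the synthesis of diphthamide on elongation factor 2, had 158, 173, 140 and 134 in IRKO and 400 and 414 in controls, a 2.70-fold fall (−1.43 ± 0.155, adjusted p = 7.49e-05). Dnajc9, a nuclear histone chaperone, had 520, 480, 448 and 402 in IRKO and 936 and 1140 in controls (−1.16 ± 0.142, adjusted p = 0.000154). Dnajc17, a nuclear protein tied to splicing, fell 1.99-fold. Dnajc7, which carries clients between Hsp70 and Hsp90, had 2313 to 3086 in IRKO and 3518 and 3785 in controls (−0.47, adjusted p = 0.0148), and did not pass without control replicate 1 (adjusted p = 0.0536) or control replicate 2, or after quantile normalization (0.300). It overlaps the myelin gene Cnp in the annotation. Cnp was lower too, with 2121 to 3860 in IRKO and 6398 and 4187 in controls (limma log2 change −0.89, adjusted p = 0.0125). Whether its reads enter the value of Dnajc7 was not tested. Of 8 oligodendrocyte markers 5 were higher and 2 lower, Cnp among the lower, with sums of 35409 to 65361 in IRKO against 30985 to 38854 in controls.

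Smaller falls were measured for Dnajc18 (1.53-fold), Dnajc4 (1.43-fold), Dnajc28 (1.38-fold) and Dnajc8, a splicing-associated protein (1.23-fold). Dnajc18 was even among IRKO libraries, at 637 to 645, against 959 and 1003 in controls. The other 3 were near the threshold, with adjusted p = 0.0281, 0.0459 and 0.0467. Dnajc28 did not pass when any 1 of the 6 libraries was left out (adjusted p = 0.0601 to 0.262). It also did not pass after TMM scaling (0.0518), nor by edgeR (0.0556) or DESeq2 (0.0958). Dnajc4 did not pass without control replicate 1 or 2 or IRKO replicate 1 or 2 (0.0594 to 0.114), and Dnajc8 did not without control replicate 1 or 2 or IRKO replicate 1, 2 or 4 (0.0584 to 0.186). Dnajc8 did not pass after TMM scaling (0.0518) or quantile normalization (0.842), nor by edgeR (0.0569).

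The 3 tested members that act on vesicles and endosomes were above the controls in every IRKO library as deposited, as were 32.8% of all genes tested. Dnajc6, the neuronal auxilin that recruits Hspa8 to uncoat clathrin vesicles (chromosome 4, 101496648 to 101642799), had 1213, 1171, 1226 and 1121 in IRKO, against 497 and 592 in controls. This was the largest rise of any member, 2.18-fold (1.12 ± 0.115, adjusted p = 5.44e-05), and it stood at −0.49 in the scaling to microglia markers. Dnajc5, the cysteine string protein of synaptic vesicles, had 3648, 3751, 3833 and 3612 in IRKO and 2604 and 3003 in controls (0.41 ± 0.109, adjusted p = 0.0114; −1.21 in that scaling), and lost its call without control replicate 1 (0.30, adjusted p = 0.112). Dnajc13, which acts on clathrin at endosomes, had 346, 347, 445 and 585 in IRKO and 327 and 296 in controls and did not pass (adjusted p = 0.113; −1.18 in that scaling). The 10 neuron markers had a median of 0.92, within the range of these 3 genes, from 0.41 to 1.12. Their relation was not tested.

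The other rises among DNAJ genes were Dnajc27 and Dnajc21. Dnajc27, a small GTPase-like protein with a J domain, had 1343, 1556, 1781 and 1663 in IRKO and 860 and 917 in controls (0.83 ± 0.131, adjusted p = 0.000691; −0.79 in the scaling to microglia markers). Dnajc21, needed for maturation of the large ribosomal subunit, had 306, 315, 290 and 245 in IRKO and 162 and 188 in controls (0.72 ± 0.155, adjusted p = 0.00375; −0.89 in that scaling). Dnajc12, a co-chaperone of aromatic amino acid hydroxylases, Dnajc16 and Dnajc25 did not pass, with changes of 0.15, 0.15 and 0.27, all below 0 in that scaling.

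The 5 members below the filter were hardly read. Dnajb7 had no reads in any library. Dnajc22 had a normalized count of 4.84 in control replicate 2 and 0 in the other 5 libraries, and Hspb9 had 0.974 in IRKO replicate 4 and 0 elsewhere. Dnajc5b ranged from 0 to 2.91 in IRKO with 0 in both controls, and Hspb7 from 1.95 to 5.83 in IRKO with 0.968 and 1.12 in controls.

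Ratios of related members within a library do not depend on a constant factor per library, though quantile normalization can change them. The pairs were chosen after their values were seen and are described with no test. The ratio of Hsp90b1 to Hspa5 was 1.46, 1.32, 1.28 and 1.06 in IRKO and 0.769 and 0.863 in controls, so the Hsp90 of the endoplasmic reticulum was higher relative to its Hsp70. The ratio of Hsph1 to Hspa4 was 0.848, 0.831, 0.717 and 0.638 in IRKO and 0.460 and 0.493 in controls. The ratio of Hsp90aa1 to Hsp90ab1 was 0.563, 0.493, 0.537 and 0.499 in IRKO and 0.438 and 0.470 in controls. In both of these the heat-inducible gene stood higher against its constitutive relative in all 4 IRKO libraries as deposited. After quantile normalization the log2 changes of Hsp90aa1 and Hsp90ab1 lay close together, at 0.25 and 0.20.

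The ratio of Dnajb1 to Dnaja1 was 0.158, 0.193, 0.203 and 0.241 in IRKO and 0.118 and 0.128 in controls. For Hspa1a against Hspa8 the groups overlapped, at 0.00311 to 0.00796 in IRKO and 0.00165 and 0.00362 in controls. Mitochondrial Hspa9 was lower relative to cytosolic Hspa8, at 0.142 to 0.169 in IRKO against 0.247 and 0.258 in controls. Hspa5 relative to Hspa8 overlapped between the groups (0.241 to 0.348 in IRKO, 0.371 and 0.311 in controls). So did Dnajc6 relative to Dnajc13, at 1.92 to 3.51 in IRKO and 1.52 and 2.00 in controls. The lid-to-barrel ratio of Hspe1 to Hspd1 was 0.547 to 0.746 in IRKO and 0.495 and 0.483 in controls. These are ratios of counts not divided by transcript length, so only their differences between libraries can be read.

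**Figure D4:**
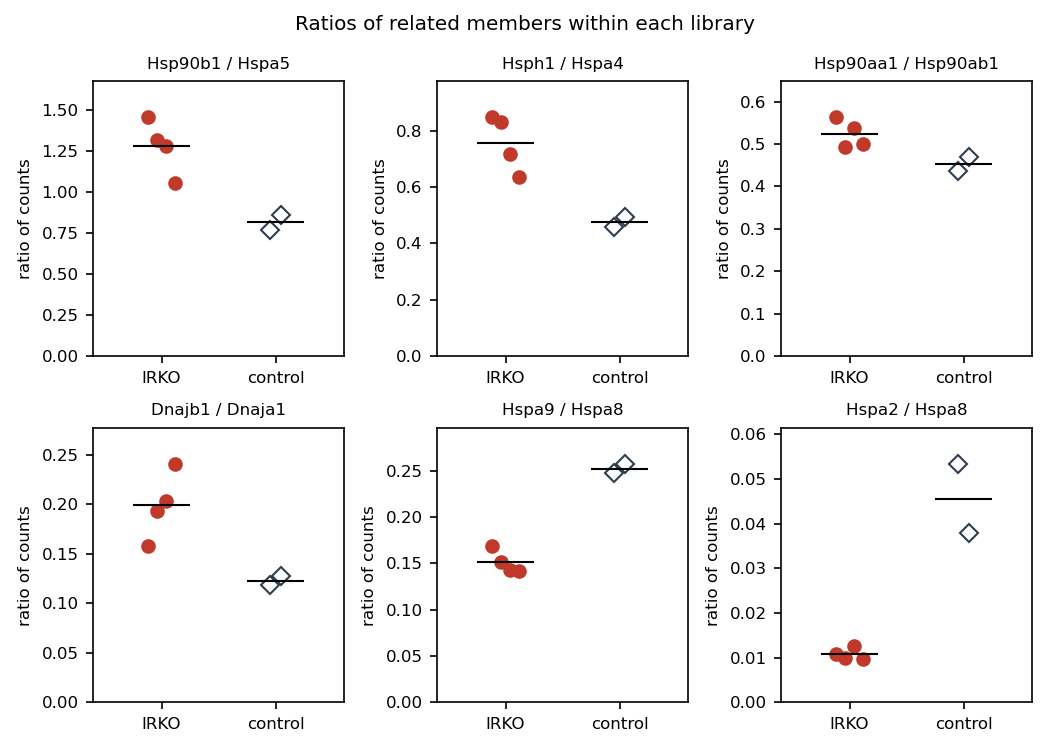
Ratios of normalized counts of 6 pairs of members within each library, with filled circles for the 4 IRKO libraries, open diamonds for the 2 controls and a line at each group's mean; each axis starts at 0. The ratios of Hsp90b1 to Hspa5, Hsph1 to Hspa4, Hsp90aa1 to Hsp90ab1 and Dnajb1 to Dnaja1 were higher in all 4 IRKO libraries than in both controls. Those of Hspa9 and Hspa2 to Hspa8 were lower. The pairs were chosen after their values were seen. Ratios that overlapped between the groups, Hspa1a and Hspa5 to Hspa8 and Dnajc6 to Dnajc13, are not drawn. Of all single genes tested, 34.8% lay below both controls and 32.8% above both.

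Regulators and other folding machines were read from lists of genes outside the symbol rule. Of the heat shock factor list, Hsf1, the main activator of the heat shock response, had 518, 554, 616 and 683 in IRKO and 1022 and 664 in controls. Its change of −0.48 was at the threshold (adjusted p = 0.0492) and rested on control replicate 1, without which it was −0.17 (adjusted p = 0.482). It also did not pass without IRKO replicate 1, 2 or 3 (0.0698 to 0.0975) or after TMM scaling (0.0594). Hsf4, a factor best known from the lens, had 137 to 189 in IRKO and 76.5 and 107 in controls (0.89, adjusted p = 0.00521; 0.0622 without control replicate 1; −0.71 in the scaling to microglia markers). Hsf5, a testis factor, had 5.84 to 14.9 in IRKO and 1.12 and 1.94 in controls. It passed the filter only through IRKO libraries, so its call is not used. Hsf2, Hsf2bp and Hsbp1 did not pass.

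The cytosolic chaperonin TRiC and prefoldin, which fold actin and tubulin, fell in 7 of 14 cases and rose in 2, or 50% lower and 14.3% higher, against 29% lower and 26.6% higher among all genes tested. Cct3 (1.82-fold) and Cct2 (1.61-fold) of the chaperonin ring and Pfdn6 (1.58-fold) fell, with all IRKO libraries below both controls. The prefoldin subunits Pfdn2 and Pfdn5 rose 1.47-fold and 1.35-fold and were below 0 in the scaling to microglia markers. Both lost their calls when either control was left out (adjusted p = 0.0542 and 0.0773 for Pfdn2, 0.0502 and 0.0941 for Pfdn5). The list median was −0.31. Exchange factors of Hsp70 fell at about the share of all genes tested (29%), in 3 of 10 cases, Sil1, Bag3 and Grpel1, and rose in 1, Bag4, which inhibits death receptor signalling (0.57, adjusted p = 0.00626; 0.0602 without control replicate 1; −1.04 in the scaling to microglia markers).

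**Figure D5:**
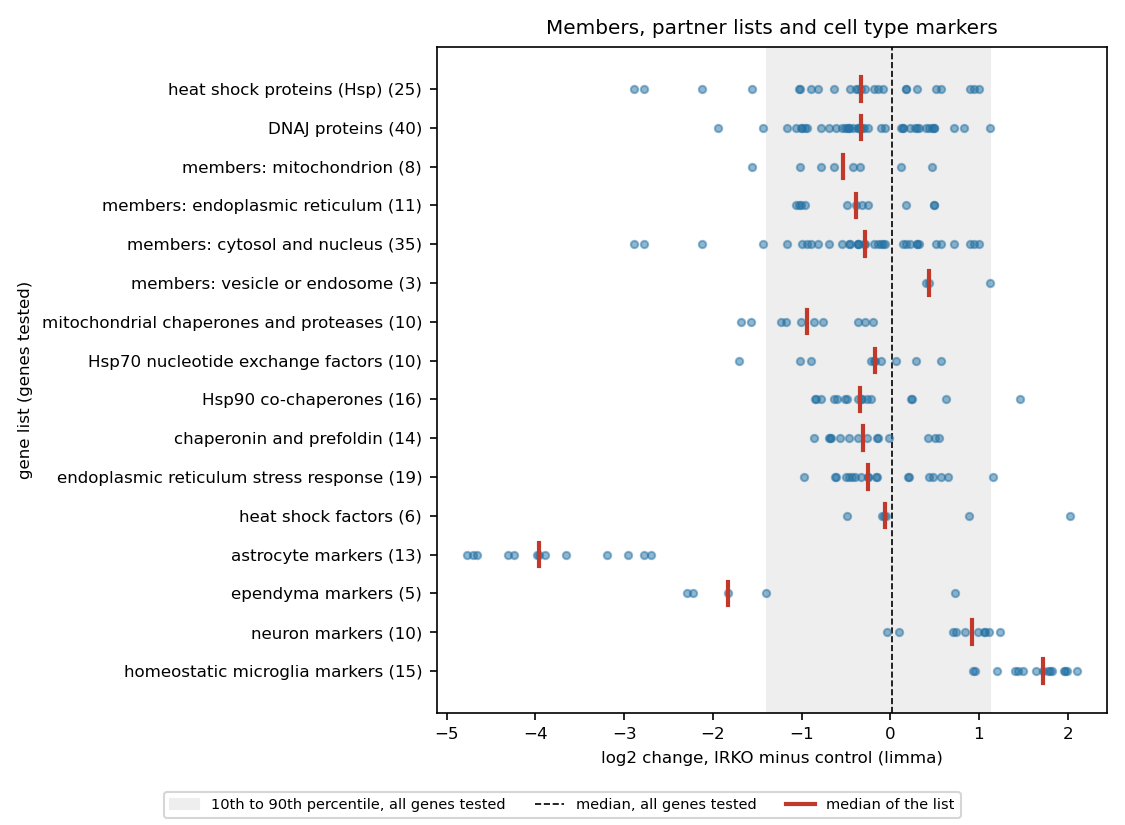
Log2 change (IRKO minus control, limma) of each tested gene in the members, in the partner lists and in 4 cell type marker lists, with a red bar at each list's median, a grey band from the 10th to the 90th percentile of all genes tested and a dashed line at their median. Mitochondrial chaperones and proteases have the lowest median of the chaperone lists (−0.93), between the astrocyte markers (−3.96) and the neuron markers (0.92); scaling to microglia markers moves the median of all genes to −1.59.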

How the data were processed

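The authors deposited 1 table of normalized counts per gene, a signal in which, judged from the deposited values, they had divided each library's read counts by a constant. Per the submitters' processing notes, Bowtie2 and GRCm38.p6 were used. How reads were counted and normalized, and whether strand was used, were not given in the sources used here. Dividing each library by its lowest nonzero value gave whole numbers (100% within 0.05 reads), and so 13858978 to 19010680 recovered reads per library. In IRKO replicate 1 the step was too near 1 for a formal check.

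Values were taken as log2(value + 1), which understates the change of low genes, and all genes with at least 10 in at least 2 samples were fitted with limma 3.58.1 in R 4.3.3 (mean-variance trend, IRKO minus control, two-sided, Benjamini-Hochberg over all tested genes, threshold 0.05). The labels do not say that replicates are separate animals, so p-values measure only how these samples spread, and that spread may be technical. No pair of libraries within a group agreed within sampling noise (chi-square per degree of freedom 16.8 to 36.9). The fit was tested on simulated data.

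Members, lists, compartments (from textbook knowledge) and the naming rule were chosen with earlier results of these data known. The rule named 50 genes (Insr; all Hsp and Dnaja genes; the lumenal and mitochondrial Dnaj genes; per direction the 4 Dnajb and 4 Dnajc genes with the smallest p, and the 2 highest means of each) and up to 3 per direction of each partner list. The remaining members are named to account for all of them, and list genes named as not passing were added after their values were seen. Coordinates come from RefSeq GRCm38.p6, which held all 70 symbols. Further called members overlap annotated genes, among them Dnajc30 (Bud23), Dnajc14 (Tmem198b and Ormdl2), Hspa12a (Eno4), Hspa5 (Rabepk), Dnajc1 (Mllt10) and Dnajc17 (Zfyve19). Whether reads of these neighbours enter their values was not tested. Alternatives were 2 pseudocounts, 2 filters, TMM, quantile and microglia-marker scaling, no trend, edgeR 4.0.16 and DESeq2 1.42.0 on recovered reads, a replicate block and leaving out each library; the count tests on 5 libraries were added after seeing the data.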

Additional observations from a re-analysis of the deposited data

Results flagged for a closer look

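In 3 of the 65 tested members 1 of the 4 IRKO libraries stood apart from the other 3, by a gap, relative to the group's range, over Dixon's 95% critical value; chance alone flags about 1 group in 20. Hspb1 had 309 normalized counts in IRKO replicate 1 and 91.3 to 125 in the other IRKO libraries. Hspb2 had 50.5 in the same library and 19.7 to 23.4 in the others. Dnajb2 had 1647 in IRKO replicate 4 and 2083 to 2103 in the others.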

How the results depend on the processing

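The counts of 9 higher and 28 lower members became 6 to 10 and 21 to 26 with 1 library left out, and 12 and 22 with a replicate block. They stayed within 1.5 times of 9 and 28 in all other alternatives except the scaling to microglia markers, which gave 0 higher (limma; 0 also at an unadjusted p under 0.05, with no other tool run on it) and 62 lower. Without 1 of the libraries, 10 of the 37 called members lost their call, 9 of them without control replicate 1 and 8 without control replicate 2. The replicate numbers share no stated origin, and the deviations of the same-numbered libraries correlated at −0.0824 and 0.0790, so the block is not a pairing. With the block, among the members, Hspa4, Dnaja2, Dnajb13, Dnajc7, Dnajc8 and Dnajc28 lost their calls and Hsph1, Dnajb6 and Dnajb1 gained one. In the scaling to microglia markers these log2 changes turned below 0: Hspa12a (−0.71), Hspa13 (−1.44), Hspa1a (−1.42), Hspb1 (−1.09), Hspb3 (−0.59), Hsph1 (−1.31), Dnajc19 (−1.49), Dnajb14 (−1.13), Dnajb6 (−1.39), Dnajc6 (−0.49), Dnajc27 (−0.79), Dnajc21 (−0.89), Dnajc14 (−1.13), Dnajc5 (−1.21), Dnajb1 (−1.29), Dnajb5 (−1.32), Dnajc12 (−1.45), Dnajc13 (−1.18), Dnajc16 (−1.46), Dnajc25 (−1.33), Dnajc30 (−1.14), Hsf4 (−0.71), Bag4 (−1.04), Fkbp5 (−0.16), Chordc1 (−0.99), Pfdn2 (−1.06), Pfdn5 (−1.19), Edem1 (−0.45), Atf6 (−0.96) and Xbp1 (−1.04). That scaling shifts all genes together by its construction, and it made the share of higher genes among all calls 0.314%, against 47.9% as deposited and 56.0% after quantile normalization. Sign changes of genes that passed under neither setting were not counted (23 cases). Low counts limit Hspa1l, Hspb2 and Dnajb13.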
